A study of Mus musculus with 30 samples.

Results

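The respiratory chain inhibitors Antimycin A and Dihydrorotenone were compared directly, each in 3 libraries, out of 30 RNA-seq libraries made from mouse tail fibroblasts. Genes entered the comparison when they reached 1 TPM (transcripts per 1000000, scaled for transcript length) in at least 3 of these 6 libraries, which 12687 of the 29861 genes in the table did. The cells were the primary fibroblast line CCG-HTA-1, derived from tails of UMHet3 mice, which are bred to be genetically diverse, at passage 4. The donor mice were 5 to 8 weeks old by the labels, except that Dihydrorotenone replicate 1 is labelled 8 to 11 weeks. Either compound was added 1 day after plating, at about 80% confluence, in high-glucose DMEM without pyruvate under ambient oxygen, and RNA was taken 48 hours later and depleted of ribosomal RNA. The 6 libraries from cells given DMSO, the solvent, serve as the background level. Doses were not used here, so a difference between the compounds is a difference between these treatments and not between equally strong blocks of each complex. The replicates are libraries of 1 cell line and no label ties them to separate animals, so p-values measure only the spread between these libraries.

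Complex I takes electrons from NADH and passes them to ubiquinone, and rotenone and its relatives, Dihydrorotenone among them, block it at the ubiquinone site. Complex III takes electrons from ubiquinol and passes them to cytochrome c. Antimycin A binds complex III at the site where ubiquinone is reduced, so electrons from every dehydrogenase that feeds ubiquinone, and not from complex I alone, are held up. Blocked mitochondria are known to signal to the nucleus through the integrated stress response, in which phosphorylated eIF2α lets the transcription factor ATF4 be translated, through the oxidant sensor NRF2 and, where mitochondrial nucleic acids reach the cytosol, through type I interferon signalling.

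Antimycin A cells differed from Dihydrorotenone cells at 2131 of 12687 genes (16.8%; limma, adjusted p under 0.05), of which 1603 (12.6%) were higher and 528 (4.16%) were lower with Antimycin A. Most of these differences were small, since only 93 genes (0.733%) differed at least 2-fold, 62 higher and 31 lower. All differences are given on the scale of log2(TPM + 1), which understates the change of genes at a few TPM. The excess of higher over lower genes depended on the scale. Higher genes made up 75.2% of the calls on deposited TPM, 65.6% after the mitochondrially encoded genes were taken out of the total, 67.5% without the 20 most abundant genes, 52.0% after median-ratio scaling and 51.4% after quantile normalization, and the median of all genes moved from 0.07 to 0.00 between the first and the last. The filter let 51 genes in through Antimycin A libraries alone and 27 through Dihydrorotenone libraries alone, and 34 and 14 of these were called in the direction that the filter favours.

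The table sums to 932907 to 933769 TPM in the Antimycin A libraries and to 936003 to 936819 TPM in the Dihydrorotenone libraries. The 20 most abundant genes took 16% to 16.7% and 17.4% to 18.6% of it. The groups did not overlap on either measure. In each of the 6 libraries 12508 to 12691 genes reached 1 TPM, and the log2 values of replicates correlated at 0.991 to 0.993. Library numbers run consecutively within each group, so a batch and a compound cannot be told apart. Of 12 fibroblast markers, 12 reached 1 TPM in all 6 libraries, against 1 of 9 keratinocyte and epithelial, 1 of 6 endothelial, 0 of 8 skeletal muscle, 2 of 6 chondrocyte, 2 of 5 Schwann and neural, 1 of 5 adipocyte, 3 of 5 melanocyte and 5 of 9 macrophage and leukocyte markers. Of the melanocyte markers, Mlana was higher with Antimycin A (14.9, 17 and 14.7 TPM against 10.2, 10.3 and 10.5 TPM, log2 difference 0.54, SE 0.16, limma adjusted p = 0.018). Mitf (0.15) and Pmel (-0.09) were not called, and the pigment genes Dct and Tyr were at or below 0.104 TPM in all 12 libraries.

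The 24 genes with the largest differences that met the naming rule (at least 5 TPM in the higher compound, no overlap between the libraries, adjusted p under 0.05 and a named gene) fall into a few recognisable kinds. Among the 12 higher with Antimycin A were the stress response genes Trib3, Chac1, Atf5, Mthfd2, Gdf15 and Chchd10 and the interferon-inducible genes Rsad2, Cxcl10, Ifi44l and Phf11b. Among the 12 lower were mt-Cytb, mt-Nd4l, mt-Atp6 and mt-Nd4 from the mitochondrial genome, the secreted factors Ccn2, Adm, Ccl20, Cbln1 and Serpina3c, the thyroid hormone deiodinase Dio3, the angiotensin receptor Agtr2 and the macrophage lysozyme Lyz2.

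**Figure D1:**
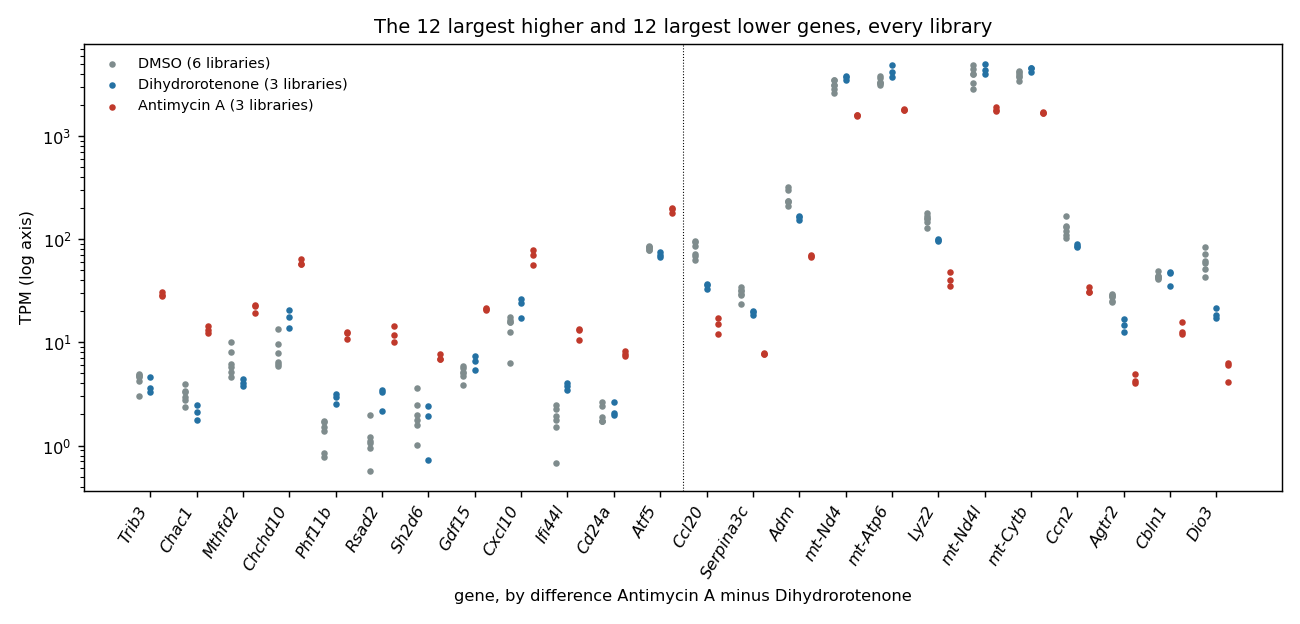
TPM on a log axis of the 24 named genes in every library, with 1 point per library for DMSO, Dihydrorotenone and Antimycin A. In each gene the 3 Antimycin A points lie on 1 side of the 3 Dihydrorotenone points, which the naming rule required; for Trib3 the Dihydrorotenone points lie among the DMSO points, while for Dio3 they lie between DMSO and Antimycin A.

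Most regulators of the integrated stress response were higher with Antimycin A. Of 22 regulators and feedback genes tested, 14 were higher (12.6% of all genes) and the other 8 were not called, with a median log2 difference of 0.38 against 0.07 over all genes. The same 22 genes had a median of 0.38 against DMSO with Antimycin A and of 0.00 with Dihydrorotenone, in contrasts that share the DMSO libraries. After median-ratio scaling the counts were 12 higher and 1 lower.

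To show what some of these promoters hold, the stretch around a match to TGATGNAAN, the core of the C/EBP-ATF response element that ATF4 binds, is printed for 4 stress genes that were higher with Antimycin A. Each stretch is 60 bases from the 250 bases before a transcription start in RefSeq (build GRCm38.p6), written 5′ to 3′ on the gene's strand, with the match in capitals in whichever orientation it stands. They come from Chac1 (chr2:119351022-119351081 on the plus strand), Chchd10 (chr10:75933019-75933078 on the plus strand), Atf3 (chr1:191183411-191183470 on the minus strand) and Slc7a11 (chr3:50443628-50443687 on the minus strand).
Chac1: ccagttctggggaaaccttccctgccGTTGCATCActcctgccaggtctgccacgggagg
Chchd10: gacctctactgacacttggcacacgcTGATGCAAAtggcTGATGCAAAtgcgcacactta
Atf3: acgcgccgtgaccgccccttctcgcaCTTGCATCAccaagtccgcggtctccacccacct
Slc7a11: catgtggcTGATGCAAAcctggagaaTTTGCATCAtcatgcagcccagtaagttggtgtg
Chchd10 holds 2 copies of the match 4 bases apart on the gene's strand, Slc7a11 holds 2 copies in opposite orientations, and Chac1 and Atf3 hold 1 copy each on the opposite strand. On either strand, this motif was found before 4 of the 19 tested stress response regulators with a promoter in the reference table (21.1%). It was found before 3 of 12 cytosolic tRNA synthetases (25%), 1 of 10 amino acid transporters (10%), 0 of 11 serine, glycine and folate enzymes, against 232 of the 9495 tested genes with a promoter (2.44%). Genes called higher and genes called lower held it at nearly the same share, 3.1% and 3.18%. Of the 11 named higher genes with a promoter, 3 held it, namely Chac1, Chchd10 and the interferon-inducible Phf11b. A match to these letters is a description of the sequence and does not show binding.

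Trib3 (ENSMUSG00000032715, chr2:152337422-152344032), a pseudokinase induced by ATF4 and its partner CHOP, stood at 28.8, 28.3 and 31.2 TPM in the 3 Antimycin A libraries, at 3.34, 3.63 and 4.6 TPM in the 3 Dihydrorotenone libraries and at 3.05 to 4.97 TPM (median 4.68) with DMSO. Every Antimycin A library was above every other, and the Dihydrorotenone libraries lay within the DMSO range. The difference of 2.66 (SE 0.11, limma adjusted p = 7.2e-15) was the largest among the named genes, a 7.63-fold ratio of the mean TPM.

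Chac1 (chr2:119351229-119354381), an enzyme that degrades glutathione, read 12.2, 13.1 and 14.3 TPM with Antimycin A, 2.09, 2.5 and 1.78 TPM with Dihydrorotenone and 2.35 to 3.95 TPM (median 3.12) with DMSO. Its Antimycin A values were all above the DMSO range, while 2 of 3 Dihydrorotenone values lay below it (log2 difference 2.19, SE 0.14, limma adjusted p = 1.1e-10); against DMSO the differences were 1.80 (adjusted p = 2.4e-11) with Antimycin A and -0.39 (adjusted p = 0.034) with Dihydrorotenone. Atf5 (chr7:44812256-44816658), a transcription factor of the mitochondrial unfolded protein response, read 179.5, 200.3 and 197 TPM with Antimycin A, 67.8, 75.6 and 71.1 TPM with Dihydrorotenone and 78.9 to 86.6 TPM (median 82.8) with DMSO. The compounds again moved to opposite sides of DMSO (log2 difference 1.41, SE 0.06, limma adjusted p = 7.2e-15), by 1.21 (adjusted p = 3.1e-15) and -0.20 (adjusted p = 0.0072) respectively.

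Atf3, a transcription factor downstream of ATF4, was measured at 11.9, 10.2 and 11.2 TPM with Antimycin A and 3.64, 4.34 and 3.82 TPM with Dihydrorotenone, against 4.32 to 7.48 TPM (median 5.08) with DMSO. No Antimycin A value overlapped either other group (log2 difference 1.30, SE 0.13, limma adjusted p = 5.2e-08). Ddit3, which encodes CHOP, read 216, 202 and 199.8 TPM with Antimycin A, 98.7, 96.6 and 90.3 TPM with Dihydrorotenone and 78.5 to 97 TPM (median 82.5) with DMSO (log2 difference 1.10, SE 0.08, limma adjusted p = 8.3e-10). Its Dihydrorotenone libraries overlapped DMSO, and the difference between them of 0.18 did not pass the threshold (adjusted p = 0.096). Atf4 itself was higher by a smaller amount, at 212, 214 and 210.3 TPM against 119.8, 131 and 132 TPM (log2 difference 0.73, SE 0.05, limma adjusted p = 1.4e-10).

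The remaining called regulators were Vldlr (0.63), Nupr1 (0.54), Sesn2 (0.49), Eif4ebp1 (0.45), Cebpg (0.39), Ppp1r15a (0.26), Ppp1r15b (0.17) and the interferon-inducible eIF2α kinase gene Eif2ak2 (0.38). The other eIF2α kinase genes were not called, with 0.06 for Eif2ak1 (HRI), -0.15 for Eif2ak3 (PERK) and 0.07 for Eif2ak4 (GCN2). Neither were Dele1 and Oma1, whose products relay mitochondrial stress to HRI: their differences were 0.08 (95% interval -0.05 to 0.21) and 0.05 (-0.19 to 0.28).

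Genes that supply amino acids and one-carbon units followed in part. Mthfd2 (chr6:83305691-83325908), the mitochondrial methylenetetrahydrofolate dehydrogenase, read 19.5, 23.3 and 22.6 TPM with Antimycin A, 4.41, 4.06 and 3.82 TPM with Dihydrorotenone and 4.57 to 10.1 TPM (median 5.95) with DMSO. All 3 Antimycin A libraries were above the DMSO range and all 3 Dihydrorotenone libraries below it (log2 difference 2.16, SE 0.17, limma adjusted p = 1.3e-09). In the serine branch, Phgdh, which commits a glycolytic intermediate to serine, stood at 28.1, 28.6 and 26.3 TPM against 10.2, 12.5 and 12 TPM (log2 difference 1.2, SE 0.11, limma adjusted p = 2.9e-08), and Psat1, which catalyses the next step, at 11.5, 13.7 and 12.1 against 6.34, 5.7 and 5.97 TPM (log2 difference 0.93, SE 0.11, limma adjusted p = 2.0e-06). Phgdh shares 56.3% of its 31-base words with other genes, chiefly Gm7901, so its level is uncertain.

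Of 13 serine, glycine and folate genes tested, 5 were higher and 8 were not called (median 0.12), against 12.6% higher over all genes (median 0.07). The other called members were Aldh1l2 (0.68) and Shmt2 (0.35). The cytosolic enzymes Mthfd1 (-0.06) and Shmt1 (0.07) were not called. Among 16 genes for proline, asparagine, glutamate and cysteine metabolism, 5 were higher and 3 lower, against 12.6% and 4.16% of all genes. The list median of 0.07 was near that of all genes. Asns, asparagine synthetase, was the largest at 56.7, 67.3 and 64.6 TPM with Antimycin A, 28.6, 29.7 and 28.8 TPM with Dihydrorotenone and 26.5 to 32.8 TPM with DMSO (log2 difference 1.08, SE 0.09, limma adjusted p = 8.8e-09); its Dihydrorotenone values lay inside the DMSO range. The lower members were Glul (-0.19), Glud1 (-0.22) and Oat (-0.30).

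Amino acid transporters showed 7 higher and 1 lower of 15 tested (median 0.34), against 12.6% and 4.16% of all genes (median 0.07). Slc7a5, the leucine transporter, read 13.7, 12.4 and 14.1 TPM with Antimycin A, 4.11, 4.94 and 5.64 TPM with Dihydrorotenone and 5.66 to 9.13 TPM (median 6.49) with DMSO, so that it was above DMSO in every Antimycin A library and below it in every Dihydrorotenone library (log2 difference 1.29, SE 0.12, limma adjusted p = 2.3e-08). Slc7a11, the cystine importer whose promoter is shown above, read 26.3, 26.1 and 29.4 TPM against 12.2, 13 and 13.7 TPM, with 15.7 to 25.7 TPM in DMSO (log2 difference 1.01, SE 0.12, limma adjusted p = 6.7e-07). Against DMSO the differences of Slc7a11 were 0.50 (adjusted p = 2.6e-04) with Antimycin A and -0.52 (adjusted p = 9.3e-04) with Dihydrorotenone. Slc1a3, a glutamate transporter, went the other way, at 18.3, 16.7 and 18.1 TPM against 30.2, 30.5 and 31.8 TPM and 39.8 to 53.8 TPM in DMSO (log2 difference -0.77, SE 0.14, limma adjusted p = 2.7e-04).

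Cytosolic aminoacyl-tRNA synthetases, which charge tRNAs for translation, were higher with Antimycin A at 15 of 20 genes (12.6% of all genes). All 20 differences were above 0 (median 0.36, from 0.02 for Hars to 0.93 for Cars). Cars read 67.9, 55.8 and 54.5 TPM against 26.2, 35.2 and 31.2 TPM (log2 difference 0.93, SE 0.11, limma adjusted p = 6.1e-07) and Aars 75.8, 64.8 and 74.4 TPM against 35.4, 40.3 and 39.3 TPM (log2 difference 0.89, SE 0.09, limma adjusted p = 9.6e-08); DMSO values were 26.3 to 34.7 and 34.1 to 44.3 TPM. The mitochondrial synthetases, which are separate genes, had 1 higher of 16 tested (Tars2, 0.23), and that call was lost under every other scaling tried. Gdf15 (chr8:70629393-70632456), a stress cytokine secreted when mitochondria are impaired, read 21.3, 21.7 and 20.5 TPM with Antimycin A, 6.63, 7.39 and 5.34 TPM with Dihydrorotenone and 3.87 to 5.92 TPM (median 5.1) with DMSO. No Antimycin A library overlapped another group (log2 difference 1.58, SE 0.10, limma adjusted p = 1.1e-10), and the Dihydrorotenone difference from DMSO was 0.30 (adjusted p = 0.026).

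**Figure D2:**
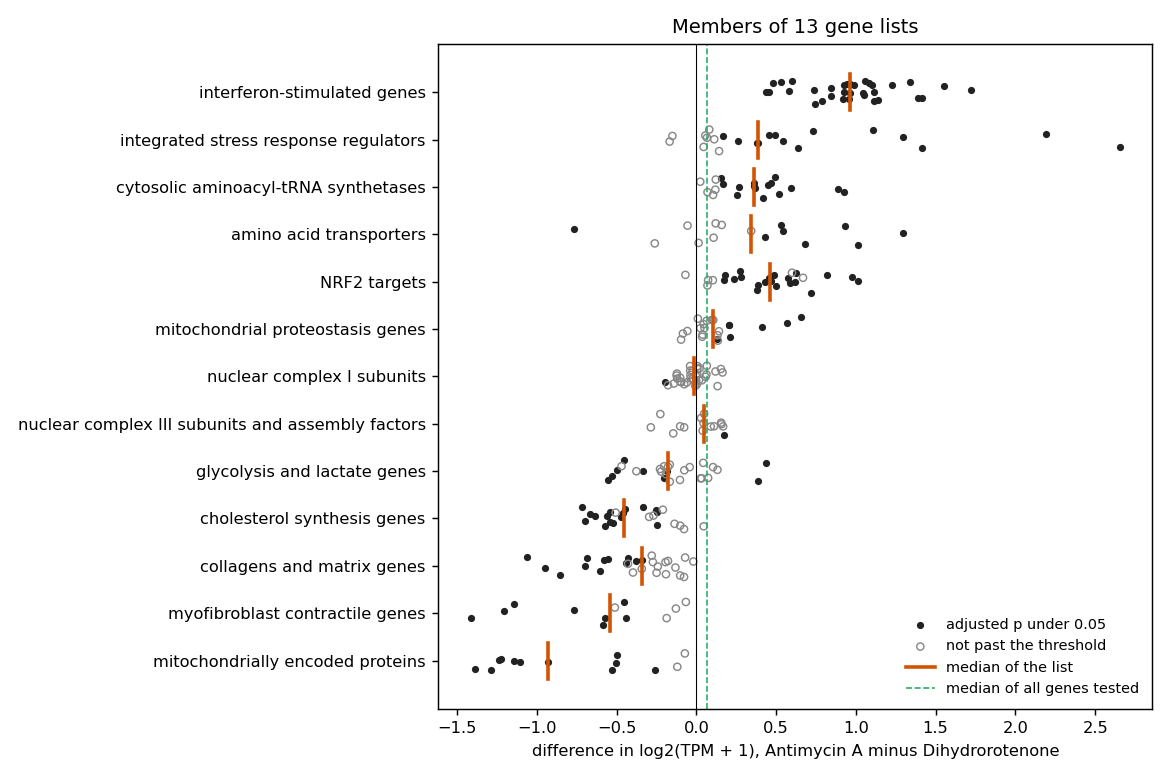
Difference in log2(TPM + 1), Antimycin A minus Dihydrorotenone, of every tested member of 13 gene lists, filled where the adjusted p was under 0.05, with the list median (orange bar) and the median of all genes (green dashed line, 0.07). Interferon-stimulated genes all lie to the right of 0 (median 0.96), mitochondrially encoded genes to the left (median -0.93), and nuclear complex I genes cluster at 0 (median -0.01).

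The listed interferon-stimulated genes were all higher with Antimycin A. The list was chosen with earlier results of these data known, so its counts describe its members and do not test the whole class. Of 33 tested, 33 were called higher and in 33 the libraries did not overlap (of all genes, 25% were separated in that direction and 8.57% in the other), with a median of 0.96 and a range from 0.44 for Irf9 to 1.72 for Rsad2. After median-ratio scaling or quantile normalization 32 were called. Against the shared DMSO libraries the median was 1.65 with Antimycin A (33 higher, against 23.4% of all genes) and 0.62 with Dihydrorotenone (25 higher, against 5.37% of all genes). DMSO replicate 6 had a mean log2(TPM + 1) of 4.04 over this list, while the other DMSO libraries ranged from 4.47 to 4.66. It thus lowers the DMSO level in both of these contrasts.

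The promoters of these genes are known for the interferon-stimulated response element, searched here as GAAA, any 2 bases and GAAA again. Stretches of 60 bases around matches, printed by the same rules, are given for Rsad2 (chr12:26456538-26456597 on the minus strand), Cxcl10 (chr5:92349068-92349127 on the minus strand), Ifit3 (chr19:34583348-34583407 on the plus strand) and Bst2 (chr8:71537562-71537621 on the minus strand), members whose values follow.
Rsad2: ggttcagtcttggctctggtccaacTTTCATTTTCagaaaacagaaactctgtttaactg
Cxcl10: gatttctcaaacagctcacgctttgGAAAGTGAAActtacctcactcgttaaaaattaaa
Ifit3: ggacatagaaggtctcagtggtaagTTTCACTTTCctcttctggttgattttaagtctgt
Bst2: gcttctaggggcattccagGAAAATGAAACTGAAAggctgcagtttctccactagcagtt
In Bst2 the capitals hold 2 matches that overlap, and in Rsad2 and Ifit3 the match is on the opposite strand. On either strand, the motif was found before 14 of the 24 interferon-stimulated genes with a promoter in the table (58.3%) and before 316 of the 9495 tested genes with one (3.33%).

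Rsad2 (ENSMUSG00000020641, chr12:26442746-26456452), the antiviral enzyme viperin, read 14.3, 11.8 and 10.1 TPM with Antimycin A, 3.27, 3.47 and 2.17 TPM with Dihydrorotenone and 0.572 to 1.99 TPM (median 1.09) with DMSO. The 3 groups did not overlap (log2 difference 1.72, SE 0.17, limma adjusted p = 9.6e-08). Cxcl10 (chr5:92346638-92348889), a chemokine that draws T cells, read 70.04, 78.6 and 55.9 TPM with Antimycin A, 26.6, 24.3 and 17.2 TPM with Dihydrorotenone and 6.28 to 17.7 TPM (median 15.7) with DMSO (log2 difference 1.55, SE 0.22, limma adjusted p = 1.9e-05). Its highest DMSO library was above its lowest Dihydrorotenone library, while all Antimycin A libraries were above both groups.

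Ifit3, which binds viral RNA with its partners, was abundant at 785, 756 and 616 TPM with Antimycin A, 319.8, 258 and 233 TPM with Dihydrorotenone and 71.9 to 140.1 TPM with DMSO (log2 difference 1.41, SE 0.21, limma adjusted p = 2.5e-05). Of its 31-base words, 61.8% also occur in another gene, so its level and that of the neighbouring copy Ifit3b (1.39) are not fully separate. Irf7, the transcription factor that amplifies interferon production, stood at 333, 303 and 301 TPM against 141, 123 and 108 TPM and 46.4 to 72 TPM (log2 difference 1.34, SE 0.15, limma adjusted p = 7.2e-07). Bst2, which tethers budding virions, reached 1180.5, 1255 and 1053 TPM with Antimycin A, 605, 519.9 and 489 TPM with Dihydrorotenone and 228 to 332 TPM with DMSO (log2 difference 1.11, SE 0.12, limma adjusted p = 4.0e-07), and no group overlapped another for Ifit3, Irf7 or Bst2. The signalling genes Stat2 (0.58) and Irf9 (0.44) had smaller differences than the genes just named, which was not tested as such.

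Interferon-inducible genes outside the list were also named by the rule. Ifi44l (chr3:151758737-151762892) read 13.6, 13.3 and 10.5 TPM with Antimycin A, 3.46, 4 and 3.81 TPM with Dihydrorotenone and 0.669 to 2.46 TPM (median 1.86) with DMSO, with no overlap between the groups (log2 difference 1.49, SE 0.17, limma adjusted p = 7.5e-07). Phf11b (chr14:59320964-59341351) read 12.7, 12.3 and 10.9 TPM with Antimycin A, 3.17, 2.95 and 2.5 TPM with Dihydrorotenone and 0.776 to 1.74 TPM (median 1.44) with DMSO, again with 3 separate groups (log2 difference 1.75, SE 0.16, limma adjusted p = 2.5e-08). Because 62.9% of the 31-base words of Phf11b occur in other genes, chiefly its neighbour Phf11d, its level is uncertain.

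Among 15 nucleic acid sensors and adaptors, 6 were higher and 1 lower (median 0.25), against 12.6% and 4.16% of all genes (median 0.07). The RNA sensors Ifih1 (0.53) and Ddx58 (0.48), which are also members of the interferon list, and Samhd1 (0.61), Trex1 (0.43) and Adar (0.40) were higher. Cgas, the cytosolic DNA sensor, was higher at 2.34, 1.88 and 2.04 TPM against 1.56, 1.36 and 1.55 TPM (log2 difference 0.31, SE 0.08, limma adjusted p = 0.0097), and Tmem173, which encodes its adaptor STING, was lower at 38.1, 35.2 and 33.5 against 43.2, 42.9 and 42.5 TPM and 44.6 to 56.9 TPM with DMSO (log2 difference -0.26, SE 0.07, limma adjusted p = 0.0093). Ifnb1, the interferon gene itself, did not pass the filter on low values. The adaptors Mavs (0.05) and Tbk1 (-0.01) were not called.

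Some macrophage markers moved the other way from the interferon genes. The summed TPM of the 9 macrophage and leukocyte markers was 102 to 116 with Antimycin A, 162 to 165 with Dihydrorotenone and 192 to 252 with DMSO. Lyz2 alone had means of 41.4, 98.9 and 157 TPM in that order. The fall of the sum thus follows mainly this gene and does not speak for the other markers. Of the 5 markers that passed the filter, 3 were lower with Antimycin A, namely Lyz2, Adgre1 and Csf1r, while Cd14 was higher (0.24) and Cd68 was not called (0.06). Adgre1, which encodes F4/80, read 3.14, 2.23 and 2.5, 5.59, 6.45 and 6.51 and 9.05 to 12.1 TPM in the order Antimycin A, Dihydrorotenone and DMSO (log2 difference -0.99, SE 0.11, limma adjusted p = 3.9e-07). Ptprc, the leukocyte marker CD45, was under 1 TPM in all 12 libraries and Cd3e was at 0 in all of them. In bulk RNA, fewer macrophages and less of these transcripts per cell cannot be told apart, and the part of these cells in the interferon values was not tested.

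NRF2 targets were higher with Antimycin A at 20 of 26 genes (12.6% of all genes), with a median of 0.46. After median-ratio scaling 16 were higher. Against DMSO the medians were 0.29 with Antimycin A (17 higher, 1 lower) and -0.08 with Dihydrorotenone (1 higher, 8 lower). In these contrasts higher calls made up 23.4% and 5.37% of all genes, and lower calls 15.8% and 9.86%. The antioxidant response element core TGACNNNGC was found before 5 of the 21 targets with a promoter (23.8%), against 13.8% of tested genes.

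Gclm, the regulatory subunit of the enzyme that starts glutathione synthesis, read 152, 166 and 152 TPM with Antimycin A, 80.6, 90.5 and 94.2 TPM with Dihydrorotenone and 92.3 to 122 TPM (median 117) with DMSO. Antimycin A libraries were all above the DMSO range, and 2 of 3 Dihydrorotenone libraries were below it (log2 difference 0.82, SE 0.08, limma adjusted p = 1.2e-07). Gsta4, which conjugates lipid peroxidation products to glutathione, read 284, 299.6 and 265 TPM against 148, 143 and 140.3 TPM and 121 to 182 TPM (log2 difference 0.97, SE 0.09, limma adjusted p = 2.1e-08), its Dihydrorotenone values lying within the DMSO range. Hmox1, haem oxygenase, read 585, 580.2 and 579 TPM with Antimycin A, 370.3, 443 and 432 TPM with Dihydrorotenone and 434 to 617 TPM with DMSO (log2 difference 0.49, SE 0.10, limma adjusted p = 7.4e-04). Against DMSO, Hmox1 differed by 0.17 (adjusted p = 0.12) with Antimycin A, which did not pass, and by -0.32 (adjusted p = 0.0093) with Dihydrorotenone. The same pattern of calls held for Txnrd1, thioredoxin reductase (log2 difference 0.38, SE 0.09, limma adjusted p = 0.0029), with 0.04 (adjusted p = 0.69) and -0.33 (adjusted p = 0.0029) against DMSO.

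Other called NRF2 targets were Taldo1 (0.72), Gsr (0.63), Blvrb (0.62), Srxn1 (0.58), Prdx1 (0.58), Gclc (0.43) and Nqo1 (0.38), and the 6 not called included the pentose phosphate genes G6pdx (0.07) and Tkt (0.07). Gsta1, Gsta2 and Ftl1 share 92.9%, 60.7% and 64.1% of their 31-base words with other genes, so their own values are uncertain. Of 19 antioxidant enzymes outside the NRF2 list, 3 were higher (Prdx6 0.44, Cat 0.26 and Txn1 0.19) and 2 lower, the secreted enzymes Gpx3 (-0.52) and Sod3 (-0.40). Over all genes 12.6% were higher and 4.16% lower. Sod1 (0.05) and the mitochondrial Sod2 (0.07) were not called.

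**Figure D3:**
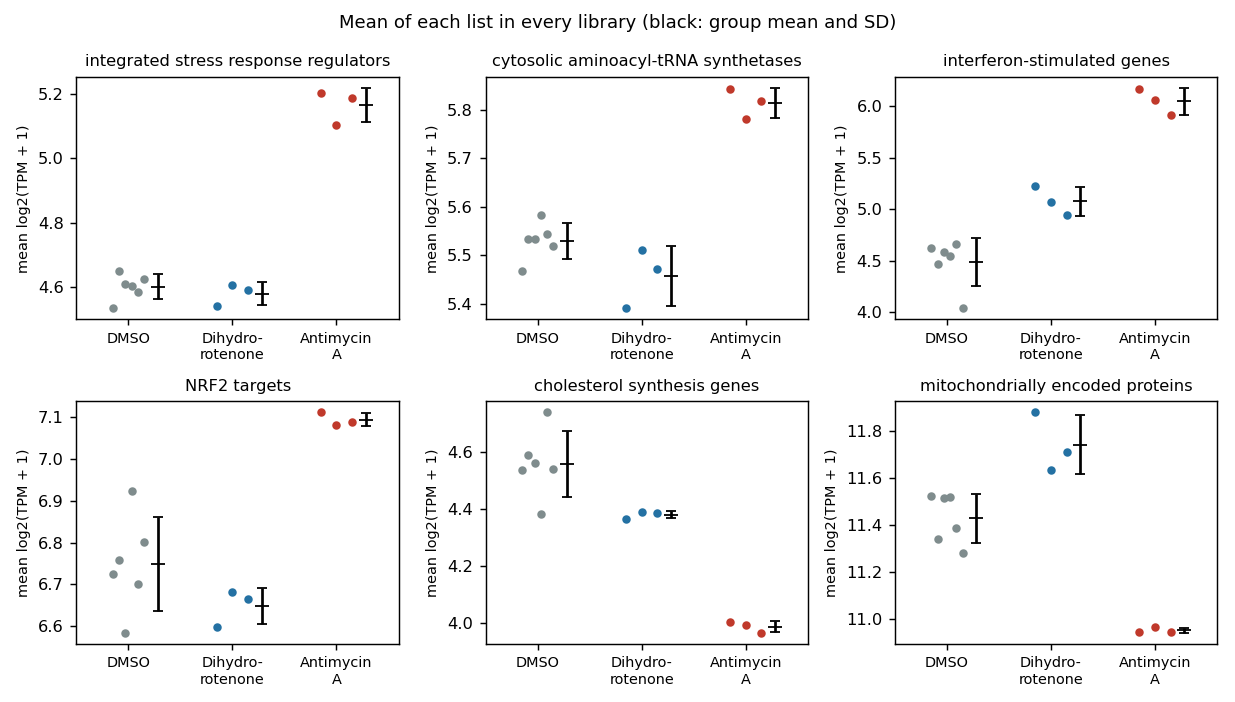
Mean log2(TPM + 1) over the tested members of 6 gene lists in every library, 1 point per library, with the group mean and SD in black. Stress response regulators ranged from 5.10 to 5.20 with Antimycin A and from 4.54 to 4.61 with Dihydrorotenone, which overlapped the DMSO range of 4.53 to 4.65; interferon-stimulated genes ranged from 5.91 to 6.17, 4.94 to 5.22 and 4.04 to 4.66 in that order.

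Transcripts of the mitochondrial genome separated the inhibitors in the opposite direction. Of the 13 proteins it encodes, all subunits of the respiratory chain or ATP synthase, 11 were lower with Antimycin A (4.16% of all genes). The other 2 were not called, and the median was -0.93. Their summed TPM was 35095 ± 1434 (SD, n = 3) with Antimycin A, 57259 ± 4976 (n = 3) with Dihydrorotenone and 47513 ± 2916 (n = 6) with DMSO, or 3.76%, 6.11% and 5.08% of each group's total. The 3 and 3 libraries did not overlap; an exact two-sided permutation test of the means gave p = 0.1, the smallest that 3 against 3 allows. Against DMSO, 9 of 13 were lower and 2 higher with Antimycin A (15.8% and 23.4% of all genes), and 10 of 13 were higher with Dihydrorotenone (5.37% of all genes).

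The size of the difference varied along the genome, which is transcribed into long precursors and cut at tRNAs. Within the first genes after the ribosomal RNAs, mt-Nd1 (complex I; chrM:2751-3707 of the mitochondrial genome) differed by -0.26 (limma adjusted p = 0.011) and mt-Nd2 by -0.12 (not called, adjusted p = 0.41). The complex IV genes mt-Co1, mt-Co2 and mt-Co3 differed by -0.49, -0.53 and -0.50. In the last part of the map, mt-Nd4l, mt-Nd4, mt-Nd5 and mt-Cytb differed by -1.29, -1.23, -0.93 and -1.39, and mt-Nd6, the only protein gene on the other strand, by -1.15. The order was not strict, since mt-Atp8 (-1.11) and mt-Atp6 (-1.23) lie before mt-Co3, and mt-Nd3 (-0.07, not called) after it.

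mt-Cytb (ENSMUSG00000064370, chrM:14145-15288) encodes cytochrome b, the mitochondrially encoded subunit of complex III and the one that holds the Antimycin A site. It read 1685, 1719 and 1690.3 TPM with Antimycin A, 4629, 4186 and 4548 TPM with Dihydrorotenone and 3473 to 4273 TPM (median 3941) with DMSO. The Antimycin A libraries were the lowest of the 12 (log2 difference -1.39, SE 0.07, limma adjusted p = 9.7e-13), at 38.1% of the Dihydrorotenone mean, and the difference from DMSO was -1.20 (adjusted p = 1.6e-13) with Antimycin A and 0.19 (adjusted p = 0.046) with Dihydrorotenone. mt-Nd4 (chrM:10167-11544), a complex I subunit, read 1561, 1591 and 1591 TPM against 3856, 3499 and 3750.4 TPM and 2638 to 3527 TPM (log2 difference -1.23, SE 0.09, limma adjusted p = 1.3e-09). mt-Nd4l (chrM:9877-10173), which overlaps the start of mt-Nd4, read 1754, 1818 and 1909 against 4988, 4054 and 4404 TPM (log2 difference -1.29, SE 0.13, limma adjusted p = 1.3e-07), and mt-Atp6 (chrM:7927-8607), an ATP synthase subunit, 1813, 1848 and 1781 against 4931, 3742 and 4218 TPM (log2 difference -1.23, SE 0.12, limma adjusted p = 4.4e-08).

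Nuclear copies of mitochondrial DNA are listed as genes of their own in the table, so reads from the shared stretches can be assigned to either. Between 62.8% and 100% of the 31-base words of mt-Atp6, mt-Co1, mt-Co2, mt-Co3, mt-Nd3, mt-Nd4 and mt-Nd4l occur in other genes, chiefly in such copies. The shares were 6.55% for mt-Cytb, 7.36% for mt-Nd6 and 16.8% for mt-Nd5. To each gene only the copy that shares most of its words was added. The Antimycin A mean was then 46.6% of the Dihydrorotenone mean for mt-Atp6, 42.7% for mt-Nd4, 40.8% for mt-Nd4l, 70.9% for mt-Co1, 68.1% for mt-Co2, 69.8% for mt-Co3 and 96.7% for mt-Nd3. For mt-Nd4 and mt-Nd4l that copy was at 0 TPM with both compounds, so their sums equal the values of the genes alone. The difference between the complex IV genes and mt-Atp6 thus stood in the sums as well, but was not tested as such. For mt-Nd4l and mt-Nd4 the sums add no information.

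**Figure D4:**
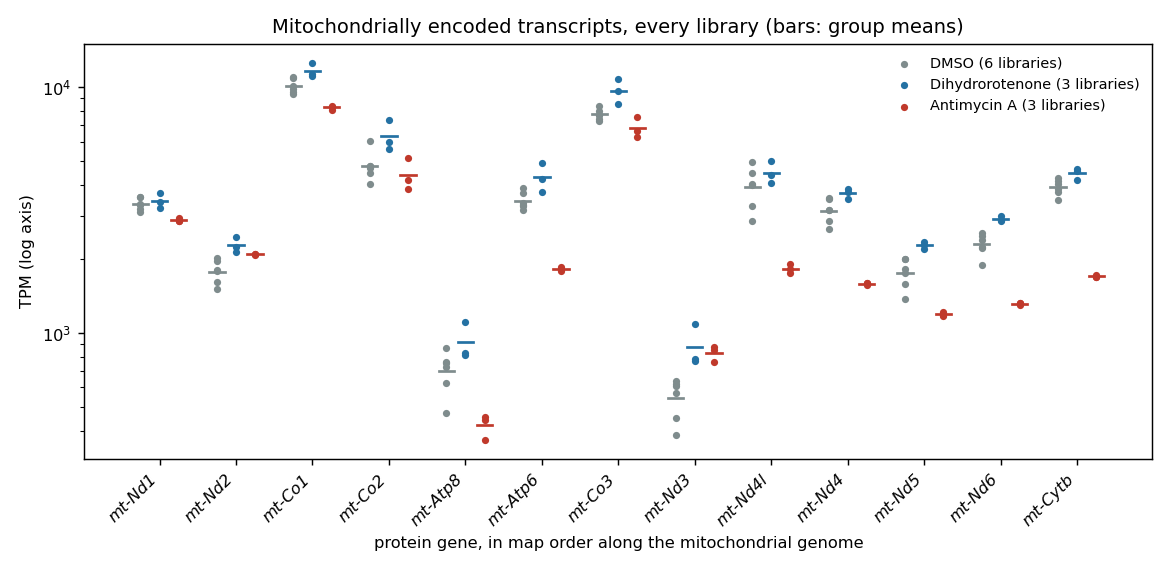
TPM on a log axis of the 13 mitochondrially encoded protein genes in map order, with 1 point per library and a bar at each group mean. Antimycin A lies nearest to Dihydrorotenone at mt-Nd1, mt-Nd2 and mt-Nd3 and furthest below Dihydrorotenone at mt-Cytb (38.1% of its mean), mt-Nd4l (40.8%), mt-Atp6 (42.2%) and mt-Nd4 (42.7%).

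The nuclear genes of the same complexes did not follow. Over the 79 tested nuclear subunits of complexes I, III, IV and ATP synthase, with the assembly factors of complex III, 2 were higher and 2 lower, the median was 0.00, and for 53 of 79 the 95% interval lay within a 1.2-fold change either way (33.6% of all genes did). Among 36 nuclear complex I subunits, the target of Dihydrorotenone, 1 was lower (Ndufv3, -0.19) and 25 had such a narrow interval; Ndufs1, the largest subunit, read 53.1, 51.2 and 51 TPM against 53.1, 55.8 and 50.6 TPM (-0.04, 95% interval -0.15 to 0.07). Among 15 nuclear complex III genes, the target of Antimycin A, 1 was higher (the core subunit Uqcrc2, 0.17, lost under other scalings), and the Rieske subunit Uqcrfs1 differed by 0.04 (-0.08 to 0.17). Of 12 complex IV subunits, Cox5a was higher (0.22) and Cox6c lower (-0.27). Limma called 0 of 16 ATP synthase subunits and 0 of 15 complex I assembly factors, with 1 and 0 of them at an unadjusted p under 0.05.

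Other routes into ubiquinone showed few calls. Of 12 tested dehydrogenases that feed ubiquinone without complex I, limma called 0, with 2 at an unadjusted p under 0.05, and for 8 the 95% interval lay within a 1.2-fold change. Dhodh, the pyrimidine synthesis enzyme that needs ubiquinone, read 14.8, 9.76 and 13.3 TPM against 8.92, 13.4 and 12.6 TPM (0.11, 95% interval -0.19 to 0.41), and Sdha, the flavoprotein of succinate dehydrogenase, differed by -0.05 (-0.18 to 0.08). None of 13 coenzyme Q synthesis genes was called by limma, with 0 at an unadjusted p under 0.05. Of 10 pyrimidine synthesis and salvage enzymes 3 were higher (12.6% of all genes). The largest were Dctd (0.45) and Umps, which completes uridine monophosphate (21.4, 20.8 and 19.9 TPM against 15.5, 15.8 and 16.2 TPM, log2 difference 0.37, SE 0.05, limma adjusted p = 2.6e-05). In the TCA cycle, Idh2 (0.28), Idh3b (0.16) and Pdhb (0.13) were higher of 19 genes, near the share over all genes, against 1 of 19 after median-ratio scaling.

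Mitochondrial chaperones and proteases were higher at 7 of 22 genes (12.6% of all genes), and at 4 after median-ratio scaling. Their median of 0.10 was near the 0.07 of all genes. For 12 of 22 the 95% interval lay within a 1.2-fold change, against 33.6% of all genes. Hspa9, the matrix chaperone mortalin, read 224, 221 and 230.4 TPM with Antimycin A, 139.7, 142 and 146 TPM with Dihydrorotenone and 145 to 161 TPM with DMSO (log2 difference 0.66, SE 0.04, limma adjusted p = 2.5e-11). Afg3l2, an inner membrane protease, read 63.6, 58 and 64.6 against 38.1, 43.6 and 43 TPM (log2 difference 0.57, SE 0.06, limma adjusted p = 5.4e-07), and Lonp1, the matrix protease, 57.4, 52.7 and 58.4 against 39.2, 43.4 and 43.2 TPM (log2 difference 0.41, SE 0.06, limma adjusted p = 2.8e-05). For these 3 genes the Dihydrorotenone differences from DMSO were -0.06, 0.12 and -0.03, none of them called. Clpp (0.11) and Hspe1 (0.10), which are often read with them as markers of the mitochondrial unfolded protein response, were not called, and Hspd1 was higher by 0.20.

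Chchd10 (ENSMUSG00000049422, chr10:75933130-75937747), a small protein of the space between the mitochondrial membranes, read 64.8, 57.6 and 57.2 TPM with Antimycin A, 17.6, 20.5 and 13.8 TPM with Dihydrorotenone and 5.87 to 13.6 TPM (median 7.17) with DMSO. Dihydrorotenone stood above DMSO by 1.01 (adjusted p = 1.6e-04), with all 3 libraries above the DMSO range, and Antimycin A was higher again (log2 difference 1.75, SE 0.19, limma adjusted p = 3.4e-07). Chchd2, its close relative, differed by -0.07 and was not called. Of 20 mitochondrial dynamics and mitophagy genes, 5 were higher (12.6% of all genes). Among them were the mitophagy receptors Sqstm1 (1427, 1381 and 1364 TPM against 948, 1018 and 981 TPM, log2 difference 0.50, SE 0.06, limma adjusted p = 9.1e-07) and Optn (0.44), while Pink1 (-0.03) was not called. Tfam, which packages and helps transcribe mitochondrial DNA, was the 1 higher of 12 biogenesis regulators (0.30), a call that every other scaling removed, and the mitochondrial RNA polymerase gene Polrmt differed by -0.17 (95% interval -0.41 to 0.07, not called).

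Glycolytic genes were mixed. Of 27 genes, 7 were lower with Antimycin A and 2 higher (median -0.18), against 4.16% and 12.6% of all genes. The lower count was 12 after median-ratio scaling, 2 without Dihydrorotenone replicate 2, 3 without Dihydrorotenone replicate 3 and 4 without Antimycin A replicate 1 or 2. The uptake and trapping steps were the higher ones: the glucose transporter gene Slc2a1 read 151, 134 and 151 TPM against 97.9, 117 and 118 TPM (log2 difference 0.39, SE 0.11, limma adjusted p = 0.014) and hexokinase 2, Hk2, 25, 25.8 and 26.6 against 16.5, 18.7 and 21.5 TPM (log2 difference 0.44, SE 0.13, limma adjusted p = 0.016). After median-ratio scaling 1 of these, Slc2a1, was called higher. Lower genes included Pdk1, which keeps pyruvate out of the TCA cycle (11.2, 9.03 and 10.3 against 13.8, 15.5 and 17 TPM, log2 difference -0.55, SE 0.14, limma adjusted p = 0.0085), Pfkl (-0.53), Pfkfb3 (-0.45) and Ldha, lactate dehydrogenase (387, 393 and 400.4 against 461, 511 and 521 TPM, log2 difference -0.34, SE 0.09, limma adjusted p = 0.014).

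Targets of the hypoxia factor HIF outside glycolysis were lower at 4 of 16 genes (8 after median-ratio scaling), against 4.16% of all genes. Adm (chr7:110627661-110629820), the vasodilator adrenomedullin, read 71, 67.4 and 69.6 TPM with Antimycin A, 170.1, 156 and 165 TPM with Dihydrorotenone and 209.7 to 320.1 TPM (median 237) with DMSO. The groups did not overlap and both inhibitors lay below DMSO, Antimycin A further (log2 difference -1.22, SE 0.11, limma adjusted p = 2.5e-08). The other called genes were Egln3 (-0.47), P4ha2 (-0.38) and Egln1 (-0.24), and Vegfa (0.14) and Car9 (-0.12) were not called.

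Cholesterol synthesis genes, most of them targets of SREBP2, were lower with Antimycin A at 16 of 24 genes (4.16% of all genes). Of the 24 differences, 23 were below 0 (median -0.45). Against DMSO the medians were -0.60 with Antimycin A (20 lower, 1 higher) and -0.23 with Dihydrorotenone (11 lower). Hmgcs1, which makes the first intermediate committed to the pathway, read 27, 26.2 and 25.5 TPM with Antimycin A, 43.5, 39.98 and 43.5 TPM with Dihydrorotenone and 48.9 to 65.4 TPM (median 55.5) with DMSO. The 3 groups were separate, in the order Antimycin A, Dihydrorotenone, DMSO (log2 difference -0.67, SE 0.08, limma adjusted p = 2.0e-06).

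Idi1 (-0.70), Sqle (-0.58), Fdps (-0.56) and the regulators Insig1 (-0.54) and Srebf2 (-0.25) were also lower. Fatty acid genes were mixed, with 3 lower and 2 higher of 23 (4.16% and 12.6% of all genes). The lower ones were the desaturases Scd1, Scd2 and Fads2, of which Scd1 read 18.8, 17.6 and 19.3 TPM against 31.3, 30.3 and 33.4 TPM and 37.6 to 51 TPM with DMSO (log2 difference -0.74, SE 0.08, limma adjusted p = 3.0e-07). Fasn, fatty acid synthase, was not called (-0.39, 95% interval -0.82 to 0.03), and the oxidation gene Acadl was higher (0.30).

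Genes of the fibroblast's matrix and contractile apparatus were lower with Antimycin A. Of 27 collagens and matrix genes 12 were lower (4.16% of all genes) and all 27 differences were below 0 (median -0.34), and 19 were lower after median-ratio scaling. Dcn, the proteoglycan decorin, read 531, 536 and 595 TPM with Antimycin A, 1145, 1132 and 1187 TPM with Dihydrorotenone and 1390.0 to 1526 TPM (median 1485) with DMSO, with no overlap between the 3 groups (log2 difference -1.06, SE 0.09, limma adjusted p = 7.7e-09). Lum, lumican, kept the same order at 119, 129 and 123, 237, 216 and 218 and 279 to 342 TPM (log2 difference -0.85, SE 0.08, limma adjusted p = 2.6e-08). Of the fibrillar collagens, Col3a1 was lower (log2 difference -0.55, SE 0.11, limma adjusted p = 8.6e-04), while Col1a1 (-0.43, adjusted p = 0.050) and Col1a2 (-0.24) were not called. Of the 12 markers of fibroblast identity, 4 were lower (Dcn, Lum, Col3a1 and S100a4, -0.52), Vim was higher (0.20) and Pdgfra was not called (0.04).

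Contractile and YAP-target genes of the myofibroblast state were lower at 8 of 12 genes (median -0.54), against 4.16% of all genes. Ccn2 (ENSMUSG00000019997, chr10:24595442-24598683), connective tissue growth factor, read 30.5, 31.1 and 34.8 TPM with Antimycin A, 86.6, 84.1 and 91 TPM with Dihydrorotenone and 103 to 167 TPM (median 126) with DMSO. The groups did not overlap (log2 difference -1.41, SE 0.22, limma adjusted p = 6.0e-05), and the Dihydrorotenone difference from DMSO did not pass, at -0.53 (adjusted p = 0.066). Acta2, smooth muscle actin, read 76.8, 84.2 and 90.6 TPM with Antimycin A, 203, 181 and 199.9 TPM with Dihydrorotenone and 194 to 323 TPM with DMSO (log2 difference -1.20, SE 0.16, limma adjusted p = 7.1e-06), and Ccn1 read 84.8, 82.5 and 77.1, 195, 175 and 174 and 156 to 263 TPM in the same order (log2 difference -1.14, SE 0.19, limma adjusted p = 1.3e-04). For both genes Dihydrorotenone libraries overlapped the DMSO range and Antimycin A libraries did not. Myl9 (-0.77) was lower too, while Tagln (-0.51, adjusted p = 0.076) and Tpm1 (-0.13) were not called.

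Among matrix metalloproteinases, which cut this matrix, 4 of 11 were higher with Antimycin A and 1 lower, against 12.6% and 4.16% of all genes. The list median of 0.08 was near the 0.07 of all genes. Mmp12 read 27.8, 24.4 and 33.6 TPM against 16.1, 16.5 and 18.5 TPM, with 22.5 to 31.6 TPM in DMSO (log2 difference 0.70, SE 0.12, limma adjusted p = 1.1e-04), and against DMSO its differences were 0.10 (adjusted p = 0.47) with Antimycin A and -0.60 (adjusted p = 2.1e-04) with Dihydrorotenone. Mmp11 read 1079.7, 952 and 1100.4, 538, 701 and 665 and 213 to 477 TPM (log2 difference 0.72, SE 0.19, limma adjusted p = 0.0093), with both inhibitors above DMSO. Mmp9 was lower, at 116, 122 and 134 against 164, 216 and 191 TPM (log2 difference -0.61, SE 0.10, limma adjusted p = 1.2e-04). Of 10 insulin-like growth factor genes 4 were lower (4.16% of all genes), namely Igf2 (-0.75), Igfbp7 (-0.60), Igfbp4 (-0.44) and the receptor Igf1r (-0.32).

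Dio3 (ENSMUSG00000075707, chr12:110279068-110281097), the deiodinase that inactivates thyroid hormone, had the largest negative difference of the named genes. It read 6.01, 6.28 and 4.16 TPM with Antimycin A, 21.5, 18.5 and 17.4 TPM with Dihydrorotenone and 43.1 to 84 TPM (median 60) with DMSO. The 3 groups were separate, and Dihydrorotenone stood between DMSO and Antimycin A (log2 difference -1.65, SE 0.17, limma adjusted p = 1.8e-07). Dio2, the deiodinase that activates the hormone, ran in the opposite direction, at 45.3, 42.1 and 43.9 TPM with Antimycin A, 27.4, 27.4 and 26.8 TPM with Dihydrorotenone and 14.7 to 22.6 TPM with DMSO (log2 difference 0.67, SE 0.10, limma adjusted p = 5.5e-05). Dlk1, in the same imprinted domain as Dio3, was not called (-0.01, 95% interval -0.22 to 0.20).

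Agtr2 (chrX:21484544-21489164), the type 2 angiotensin receptor, read 4.89, 4.18 and 4 TPM with Antimycin A, 16.9, 12.6 and 14.7 TPM with Dihydrorotenone and 24.6 to 29.6 TPM (median 28) with DMSO, again in 3 separate groups (log2 difference -1.55, SE 0.12, limma adjusted p = 2.5e-09). Cbln1 (chr8:87468405-87472609), a secreted protein known from cerebellar synapses, read 12.6, 12 and 16 TPM with Antimycin A, 35.1, 48 and 47.5 TPM with Dihydrorotenone and 41.7 to 49.7 TPM (median 43.7) with DMSO. Here Dihydrorotenone did not differ from DMSO by the test (-0.03 (adjusted p = 0.91)), 1 of its libraries being below and 2 inside the DMSO range, and the Antimycin A libraries stood below all others (log2 difference -1.62, SE 0.18, limma adjusted p = 5.7e-07). Serpina3c (chr12:104146382-104153870), a protease inhibitor, read 7.84, 7.74 and 7.72 TPM against 20.4, 19.6 and 18.5 TPM and 23.4 to 34.8 TPM (log2 difference -1.22, SE 0.11, limma adjusted p = 8.4e-09).

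Lyz2 (chr10:117277331-117282321), lysozyme M, read 40.1, 35.6 and 48.6 TPM with Antimycin A, 95.9, 99.6 and 101 TPM with Dihydrorotenone and 129 to 180.4 TPM (median 159) with DMSO, with 3 separate groups (log2 difference -1.25, SE 0.10, limma adjusted p = 2.6e-09). Of its 31-base words, 32.8% also occur in other genes, chiefly its neighbour Lyz1. Ccl20 (chr1:83116766-83119167), a chemokine under NF-kB control, read 12, 17.2 and 14.9 TPM with Antimycin A, 36.7, 36.4 and 32.9 TPM with Dihydrorotenone and 62.7 to 95.5 TPM (median 79.2) with DMSO, with the same order and no overlap (log2 difference -1.22, SE 0.15, limma adjusted p = 2.0e-06). Of 24 tested NF-kB and inflammatory genes 7 were lower (4.16% of all genes) and 17 not called. The lower ones included the interleukin 1 antagonist Il1rn (3.98, 6.25 and 5.37 against 12.3, 12 and 10.9 TPM, log2 difference -1.05, SE 0.25, limma adjusted p = 0.0038), Lcn2 (-0.40), Saa3 (-0.39) and Cxcl1 (-0.38). Il6 was below DMSO with both inhibitors (-1.34 (adjusted p = 5.5e-05) and -1.09 (adjusted p = 0.0023)) and did not differ between them by the test (-0.25, 95% interval -0.81 to 0.31). Of 18 AP-1 and immediate early genes, 3 were lower (4.16% of all genes), namely Egr2 (-0.65), Egr3 (-0.54) and Fosl1 (-0.27). Fos (-0.71) and Egr1 (-0.66) were not called.

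Growth and damage genes showed smaller shifts. Of 17 p53 targets 8 were higher and 1 lower, against 12.6% and 4.16% of all genes. The largest was Gadd45a, which is also a stress response gene (1074, 1055 and 1064 TPM against 646, 690.4 and 653 TPM and 441 to 642 TPM in DMSO, log2 difference 0.68, SE 0.09, limma adjusted p = 7.4e-06). Cdkn1a, the p21 gene, was not called (0.18, adjusted p = 0.057). Among 26 tested replication and mitosis genes 6 were higher and 1 lower (3 and 2 after quantile normalization), against 12.6% and 4.16% of all genes. The higher ones included the replicative helicase subunits Mcm3 (7.27, 5.81 and 7.61 against 3.92, 4.16 and 4.49 TPM, 0.60), Mcm7 (0.48) and Mcm6 (0.38), and the lower one was cyclin D1, Ccnd1 (10.8, 10.9 and 11.8 TPM against 17.1, 17.2 and 17.5 TPM and 25.9 to 42.5 TPM in DMSO, log2 difference -0.59, SE 0.12, limma adjusted p = 0.0013).

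Rotenone and its relatives are known to bind tubulin as well as complex I. Of 11 tubulin genes tested, 2 were higher with Antimycin A and 1 lower, against 12.6% and 4.16% of all genes. The counts were 2 higher and 2 lower after median-ratio scaling, and 1 and 2 after quantile normalization. Tubulin binding was not tested. Tubb2b read 9.59, 11.5 and 11.3 TPM with Antimycin A, 5.86, 5.2 and 5.19 TPM with Dihydrorotenone and 4.2 to 5.51 TPM (median 4.7) with DMSO; its Antimycin A libraries were above all others and 1 of 3 Dihydrorotenone libraries was above the DMSO range (log2 difference 0.87, SE 0.09, limma adjusted p = 2.7e-07). The other called tubulins were Tubb5 (0.20) and Tuba1c (-0.30). The abundant Tuba1a (-0.11) and Tuba1b (-0.19) were not called.

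Lysosome and autophagy genes were higher at 11 of 24 genes (12.6% of all genes), but at 5 after median-ratio scaling, with 2 then lower. Ctsk, cathepsin K, read 988, 959 and 965, 673, 662 and 665 and 405 to 582 TPM, with Antimycin A above Dihydrorotenone and both above DMSO (log2 difference 0.54, SE 0.09, limma adjusted p = 1.5e-04). Chaperones of the endoplasmic reticulum were higher at 3 of 20 genes and lower at 1, shares near those over all genes (12.6% and 4.16%). For this list 15 of 20 intervals lay within 1.2-fold, against 33.6% of all genes. Hspa5 (BiP), the main such chaperone, read 485, 472 and 504 TPM with Antimycin A and 504, 507 and 511 TPM with Dihydrorotenone, against 655 to 724 TPM with DMSO; both inhibitors were below DMSO (-0.48 (adjusted p = 4.8e-09) and -0.42 (adjusted p = 1.5e-06)) and the difference between them was -0.06 (95% interval -0.17 to 0.05). Heat shock genes were higher at 3 of 16, also near the share over all genes, with Hspb1 the largest (0.50) and Hspa1a (0.03) not called. After median-ratio scaling 2 heat shock genes were higher and 2 lower. Of 21 iron and haem genes 5 were higher (12.6% of all genes), Hmox1, Ftl1, Slc25a37, Slc25a28 and Cpox, and the transferrin receptor Tfrc was not called (-0.08). After median-ratio scaling 3 iron and haem genes were higher and 2 lower.

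The naming rule brought in 2 more genes that belong to none of these groups. Sh2d6 (chr6:72513641-72521707), which encodes an SH2 domain adaptor, read 7.67, 6.86 and 6.95 TPM with Antimycin A, 0.727, 2.43 and 1.94 TPM with Dihydrorotenone and 1.02 to 3.6 TPM (median 1.86) with DMSO; its Antimycin A libraries were above all others and its Dihydrorotenone libraries spread from below the DMSO range into it (log2 difference 1.65, SE 0.25, limma adjusted p = 3.1e-05). Cd24a (chr10:43578284-43584265), a glycosylated surface protein, read 7.46, 7.7 and 8.34 TPM with Antimycin A, 1.97, 2.63 and 2.09 TPM with Dihydrorotenone and 1.72 to 2.63 TPM (median 1.82) with DMSO, with Dihydrorotenone values inside or at the DMSO range (log2 difference 1.46, SE 0.13, limma adjusted p = 2.5e-08).

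**Figure D5:**
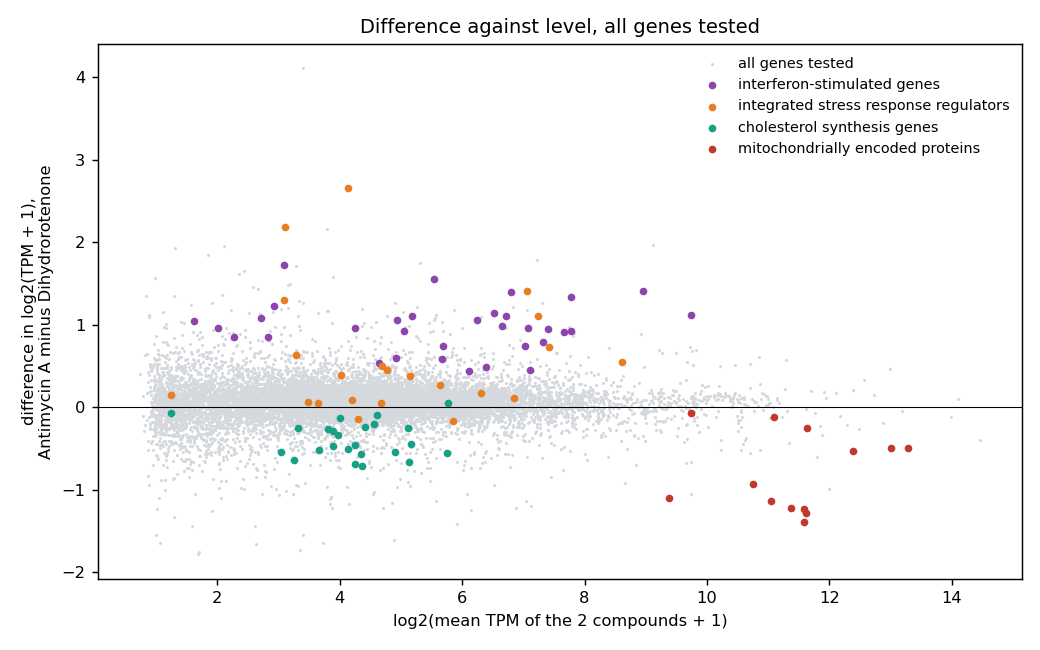
Difference in log2(TPM + 1), Antimycin A minus Dihydrorotenone, against the log2 mean level for all 12687 genes tested, with 4 gene lists coloured. Mitochondrially encoded genes lie at high levels and below 0, interferon-stimulated genes lie above 0 across the range of levels, and cholesterol synthesis genes lie below 0 at low to middle levels except Ebp (0.05).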

How the data were processed

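RNA-seq was made from mouse tail fibroblasts 48 hours after treatment, on rRNA-depleted total RNA. Reads were quantified with kallisto 0.43.1 against mm10, per the submitters' processing notes, and the design text names tximport and, for the authors' own tests, DESeq2; the transcript set of the index is not given in the sources used here. The deposited table holds TPM per gene as the authors made it, which sums to 92.7% to 93.7% of 1000000 in each library, so the depth of a library is unknown and no counting interval is given. Groups were taken from the labels, which name 6 DMSO libraries where the design text says 5. Gene names and positions come from GENCODE M21 (98.8% of genes matched), promoters from RefSeq (GRCm38.p6), and the share of 31-base words that a gene has in common with others from the GENCODE transcripts.

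Limma 3.58.1 (R 4.3.3) was fitted to log2(TPM + 1) of all 30 libraries with 1 mean for each of 9 groups and an intensity trend, so all groups lend their spread, and p-values were adjusted by Benjamini-Hochberg over the 12687 genes with at least 1 TPM in 3 of the 6 libraries. The rule for named genes took the 12 largest differences in each direction among genes with adjusted p under 0.05, at least 5 TPM in the higher compound, no overlap between libraries and a name that is no predicted gene or pseudogene; members of 42 gene lists and 9 marker lists (759 list genes) are named as well. Members and lists were chosen with earlier results of these data known. A few list members are not reported here by name. Lists are described by counts and medians with no set test. On simulated data the fit recovered 95% of 100 genes changed by 1 on the log2 scale and 86% of 100 changed by 0.5. Of the 190 calls made there, 9 were false. Recovery of genes at a few TPM, or with a shift of scale between the groups, was not tested. Alternatives covered the pseudocount, filter, scaling, samples in the fit, replicate block, variance moderation, minimum fold and leaving out each library.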

Additional observations from a re-analysis of the deposited data

Results flagged for a closer look

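Among the 25 values tested in the 6 DMSO libraries (the 24 named genes and the mitochondrial sum), 2 held a library far from the others, about what chance gives when 1 in 20 is marked. Trib3 in DMSO replicate 1 was 3.05 TPM, while the other 5 libraries ranged from 4.26 to 4.97 TPM. Cbln1 in DMSO replicate 6 was 49.7 TPM, above the 41.7 to 44.6 TPM of the rest. Neither library enters the contrast of the inhibitors, whose groups of 3 were too small for this check.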

How the results depend on the processing

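All 24 named genes kept their direction and their side of the threshold in the 551 alternative values computed for them. The 2131 called genes became 266 (184 higher, 82 lower) when a change above 1.2-fold was required, and from 1432 (without Antimycin A replicate 1) to 1952 without 1 library, with 1015 to 1584 higher and 368 to 523 lower. Without Dihydrorotenone replicate 1, the library with the other age label, 1602 genes were called and 67.4% of them were higher. Leaving out Dihydrorotenone replicate 2 or 3 gave 79.0% or 78.2% higher. An effect of the donor age was not tested. Median-ratio scaling gave 971 higher and 898 lower and quantile normalization 1022 and 968, against 1603 and 528. At least 2-fold differences numbered 151 with a pseudocount of 0.1 and 43 with 5. Lists under the 1.2-fold requirement held 7 stress response regulators, 6 cytosolic tRNA synthetases and 8 NRF2 targets higher, and 7 mitochondrially encoded, 6 cholesterol, 4 matrix, 4 contractile and 0 glycolysis genes lower. Lower matrix genes numbered 19 after median-ratio scaling and 10 to 17 without 1 library, lower contractile genes 5 with a mean of at least 5 TPM and 6 to 8 without 1 library, and lower glycolysis genes 12 after median-ratio scaling, 11 after quantile normalization, 3 in the 6-library fit with a replicate block and 2 to 8 without 1 library. The summed mitochondrial difference ranged from -24415 (without Dihydrorotenone replicate 2) to -19493 TPM (without Dihydrorotenone replicate 1). The latter library had the highest mitochondrial sum of its group, 62601 TPM against 52757 and 56420 TPM. The replicate numbers share no stated source: deviations of same-numbered libraries correlated at -0.12, -0.07 and 0.00, and no library matched its own number best. A replicate block gave 2346 calls over 30 libraries and 886 (575 higher, 311 lower) over the 6 libraries alone. Without a block, the 6 libraries alone gave 1567 calls (1117 higher, 450 lower), which held 65.9% of the main calls. The depth of the libraries is unknown, so differences of genes at a few TPM, where 1 read may weigh much, carry an error that replicates alone show. Each arm has 3 libraries of 1 line at 1 time.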

Other observations

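Several genes outside the lists, chosen after their values were seen, differed at least 2-fold in the same direction as the interferon-stimulated genes. The chemokines Cxcl9, at 47.6, 46.1 and 38.8 TPM with Antimycin A against 20.7, 20.1 and 17.3 TPM with Dihydrorotenone and 4.56 to 11.1 TPM with DMSO, and Cxcl11, at 18.1, 21 and 15.3 against 7.78, 8.03 and 6.59 TPM, bind the same receptor as Cxcl10. Nlrc5, the activator of MHC class I genes, differed by 1.13 and the class I gene H2-Q7 by 1.18, while the DNA-binding HIN-200 family members Ifi203, Ifi207 and Mndal differed by 1.02, 1.06 and 1.12 (limma, adjusted p under 0.05 for each). Close copies within the MHC and HIN-200 families can share reads, and 42.2% of the 31-base words of Cxcl11 occur in another gene.

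A further set of genes lower with Antimycin A, also picked by their values, encodes secreted or signalling proteins. Wnt5a read 15.3, 12.5 and 15 TPM with Antimycin A against 29.9, 30.4 and 31.8 TPM with Dihydrorotenone (log2 difference -1.06), Il33 12.8, 15.5 and 15.3 against 30.5, 31.2 and 30.04 TPM (-1.03) and Hpgd, which inactivates prostaglandins, 15.8, 18 and 16.7 against 39.1, 39.2 and 38.7 TPM (-1.17). The integrin genes Itgb3 (1.26) and Itga6 (1.14) were higher.

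Some of the largest differences belong to predicted genes and pseudogenes, which the naming rule leaves out. Gm20594 (chr6:79817916-79818364) read 854, 967 and 838 TPM with Antimycin A, 217, 235 and 224 TPM with Dihydrorotenone and 182 to 259 TPM with DMSO (log2 difference 1.97, SE 0.13, limma adjusted p = 1.3e-10). Of its 31-base words, 10% occur in other genes, chiefly mt-Rnr2, the large mitochondrial ribosomal RNA. The genes in the table do not include mt-Rnr2, so its level is unknown. The pseudogene Gm6750 read 17.8, 11.6 and 28 TPM against 0.33, 0 and 0 TPM, so it passed the filter through the Antimycin A libraries alone, which fixes its direction. It shares 89.5% of its words with other genes, chiefly Hmgn2. Rpl23a-ps3 differed by 1.78 and shares 93.2% of its words with other genes, chiefly Rpl23a, so neither level can be assigned to the pseudogene.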
